A study of Mus musculus with 4 samples.

Results

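Endothelial and vascular genes were followed in mouse forelimb buds at E11.5, with and without the chromatin remodelling subunit gene Smarcc1. The set was given by name: 35 genes, of which 34 were found among the 35689 genes of the expression table through Ensembl identifiers of the mm10 build. Mmrn3 matched no symbol and has no value here. The genes code for the receptors, transcription factors, junction proteins and secreted factors by which endothelial cells, the lining cells of blood vessels, are recognised. The knockout embryos were PrxCre/+;Smarcc1c/c, and the control embryos were Prx+/+;Smarcc1c/c. Conditional Smarcc1 alleles were therefore present in every embryo, and Cre was the difference. PrxCre is a transgene active in limb bud mesenchyme, so that endothelial cells, blood and ectoderm lie for the most part outside its domain. Each of 4 libraries came from the left and right forelimb of 1 embryo. Each genotype had 1 embryo of 40 somites (replicate 1) and 1 of 39 somites (replicate 2), the somite count being a fine measure of embryonic age.

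Endothelial cells of the limb bud form a capillary plexus that grows with the mesenchyme around it. VEGF made by the mesenchyme acts on endothelial VEGF receptors and drives sprouting, while angiopoietins act on the TIE2 receptor and govern how vessels mature. Transcription factors of the ETS, SOXF and SCL families switch on most genes that are restricted to endothelium. In whole buds the level of an endothelial gene depends on how many endothelial cells the bud holds and on how much RNA of that gene each cell holds. Fewer cells and less RNA per cell cannot be told apart in these libraries.

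Smarcc1 itself was lower in the knockouts, at 46.2 and 38.4 TPM in the 40- and 39-somite knockouts against 112 and 119.6 TPM in the matching controls (log2 fold change -1.44 ± 0.13, SE; limma adjusted p = 0.0117). TPM, a share of all transcripts in a library, is scaled for transcript length, so levels of different genes can be compared. Between 12555 and 12689 genes reached 1 TPM in a library. The read depth is unknown. Ddx3y, carried on chromosome Y, had 0.0498 and 0.0130 TPM in the 40-somite knockout and control against 28.3 and 30.2 TPM in the 39-somite pair. Stage and sex therefore cannot be told apart in these embryos, while each genotype holds the same mix of both. With 2 libraries on each side an exact two-sided permutation test cannot give a p below 0.333, so p-values come from limma, which shares its estimate of the spread over all genes. Nothing in the labels ties embryos to litters, and the p-values measure the spread between these 4 embryos only.

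The defining endothelial markers were present in every library. Their levels ran from 2.53 TPM for Tie1 in the 40-somite control to 21.5 TPM for Emcn in the 39-somite knockout. Over the 4 libraries the highest means were those of Egfl7 (39.9 TPM), which codes for a secreted endothelial matrix protein, Cd34 (28.9 TPM), a sialomucin of endothelial and blood progenitors, and Fli1 (27.3 TPM), an ETS transcription factor. Fli1 is also known from mesenchyme, and CD34 from other progenitor cells. The lowest were Etv2 (0.404 TPM), the ETS factor that starts the endothelial lineage early in the embryo, and Angpt2 (0.536 TPM). Neither reached 1 TPM in any library, and they were not tested. The other 32 genes reached 1 TPM in at least 2 libraries and were tested. Gpihbp1 did so only in the knockouts, and Flt4 and Vwf only at 39 somites, so their inclusion depended on the group in which they were higher.

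**Figure D1:**
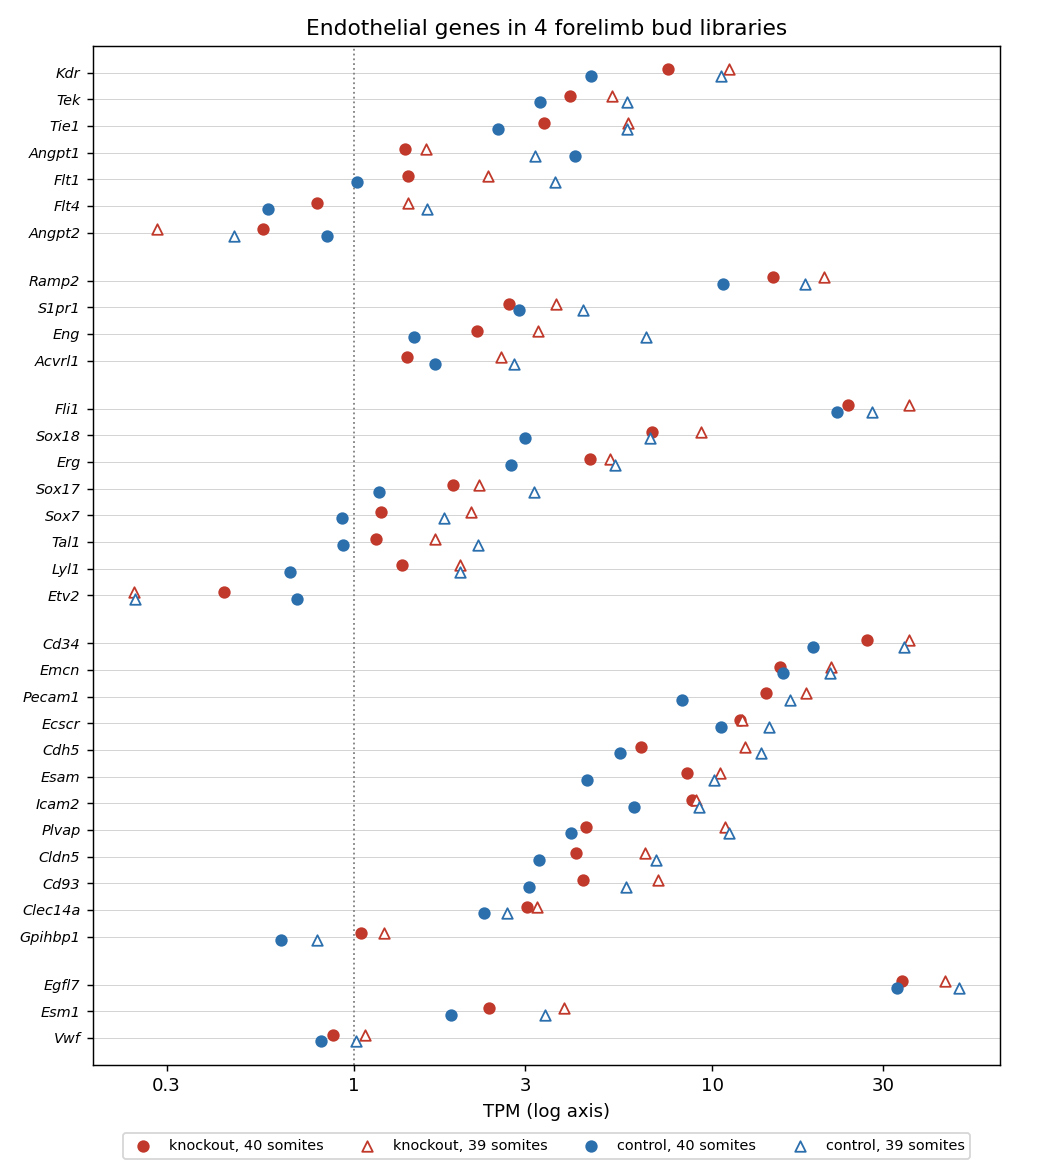
TPM of the 34 measured endothelial genes in each library, on a log axis, by role (receptors and angiopoietins; BMP9, lipid and peptide signal receptors; transcription factors; surface and junction proteins; secreted proteins) and by mean level within a role. Filled circles are 40 somites and open triangles 39 somites; red is knockout and blue control; the dotted line marks 1 TPM. In 28 of the 34 genes the lowest value is that of the 40-somite control, as it is in 5432 of all 12809 tested genes.

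The main comparison asks whether loss of Smarcc1 from limb mesenchyme changes the endothelial genes of the bud. No tested endothelial gene passed. Differences were computed on log2(TPM + 1) values, knockout minus control, and the threshold was a Benjamini-Hochberg adjusted p of 0.05 over all 12809 tested genes. By limma 0 of 32 endothelial genes passed, against 1.30% of all tested genes. The background was 0.812% higher and 0.492% lower. At an unadjusted limma p under 0.05 there was 1, Angpt1, which was lower, against 13.7% of all tested genes in either direction and 6.89% that were lower. The median log2 fold change of the 32 was 0.12, against 0.01 for all tested genes. Of the 34 measured genes 23 lay above 0 and 11 below, where 51.8% of all tested genes lay above 0 and 48.2% below. The knockout libraries did not overlap the controls in 3 genes that were higher in the knockouts (Sox18, Clec14a and Gpihbp1) and in 1 that was lower (Angpt1), and among all tested genes such separation was seen in 22.7% upward and 21.2% downward. This model leaves stage in the spread, and the 95% interval of the log2 fold change was -1.04 to 1.07 for Cdh5 and -0.70 to 1.02 for Tie1. With somite stage as a block, which pairs the embryos by label, the interval was -0.30 to 0.33 for Cdh5 and -0.19 to 0.51 for Tie1. Under the block 0 of 32 passed by limma, against 4.16% of all tested genes. At an unadjusted p under 0.05 there were then 4 that were higher (Sox18, Ramp2, Cd93 and Pecam1) and Angpt1 that was lower, against 24.1% of all tested genes in either direction.

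At 40 somites the knockout stood above the control in most endothelial genes, and at 39 somites about as many stood above as below. At 40 somites 28 of the 34 genes were higher in the knockout than in the control of the same stage, against 54.5% of all tested genes, with a median log2 difference of 0.25. At 39 somites 16 were higher and 18 lower, against 48.6% of all tested genes that were higher, with a median of -0.01. Higher at both stages were 15 of the 34 (36.1% of all tested genes), and lower at both were 5 (33.0%), namely Angpt1, Angpt2, Acvrl1, S1pr1 and Etv2. These are differences between single embryos, and a change of the genotype effect with stage cannot be tested with 1 library of each kind. Summed over the 34 genes the level was 227.7 and 312.9 TPM in the 40- and 39-somite knockouts against 184.3 and 311.8 TPM in the matching controls. Without control replicate 1, the 40-somite control, the median log2 fold change was -0.19, with 4 of the 32 tested genes above 0. Without control replicate 2 it was 0.49, with 31 above 0. Leaving out knockout replicate 1 gave 0.35, and leaving out knockout replicate 2 gave -0.07. The sign of the median thus changed with the library left out. Each such fit leaves stage and sex unbalanced between the genotypes. The shifts therefore also hold the difference between stages and do not test the direction by genotype.

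**Figure D2:**
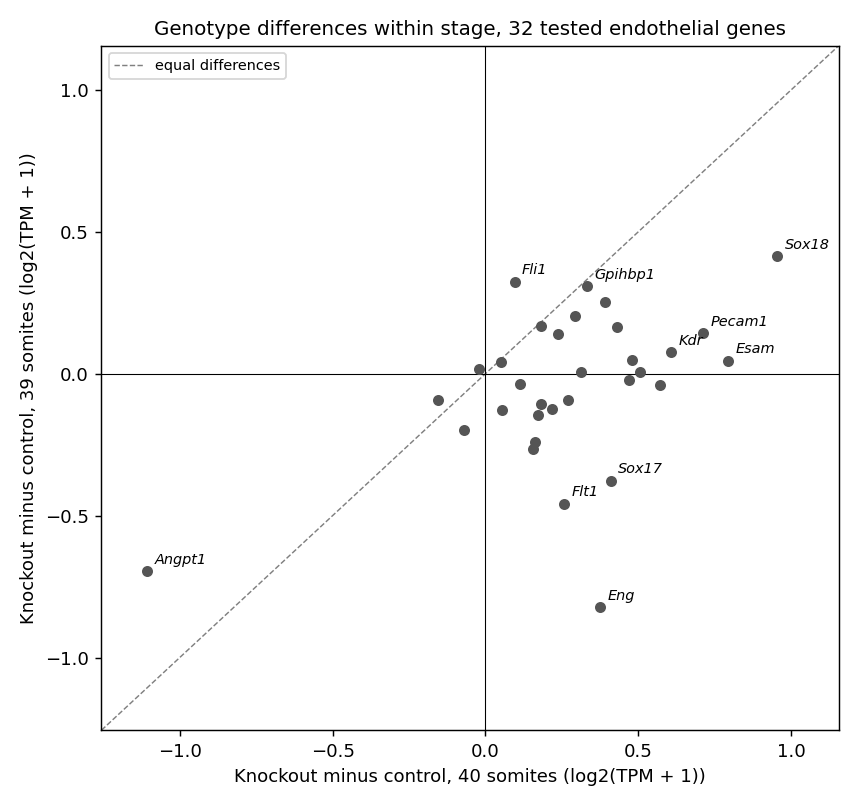
Knockout minus control at 40 somites (horizontal axis) and at 39 somites (vertical axis), in log2(TPM + 1), for the 32 tested endothelial genes; each point is a gene and each difference is 1 library against 1. Most points lie right of 0 and close to 0 on the vertical axis, with Angpt1 lower at both stages (-1.11 and -0.70) and Sox18 higher at both (0.96 and 0.41).

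Angpt1, the agonist ligand of TIE2, which is made by perivascular and mesenchymal cells rather than by endothelium, had the smallest p-value of the set. It stood at 1.39 and 1.59 TPM in the 40- and 39-somite knockouts against 4.14 and 3.19 TPM in the matching controls. Both knockouts lay below both controls. The log2 fold change was -0.90 ± 0.18 (SE, n = 2 each) with a 95% interval from -1.33 to -0.47, and the limma adjusted p of 0.0899 missed the threshold. Over the other settings with all 4 libraries the limma adjusted p ran from 0.0583 to 0.240. Angpt1 passed when knockout replicate 1 (0.0328) or 2 (0.0112) was left out, and missed when control replicate 1 (0.282) or 2 (0.139) was. The gene (ENSMUSG00000022309) lies on the minus strand of chromosome 15 from 42424723 to 42676977 in mm10.

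The TIE receptors overlapped between genotypes with both stages pooled. Tek, which encodes TIE2, stood at 4.003 and 5.23 TPM in the 40- and 39-somite knockouts against 3.30 and 5.78 TPM in the matching controls, with a log2 fold change of 0.05 ± 0.25 (SE; 95% interval -0.56 to 0.66; limma adjusted p = 0.964). Tie1, the co-receptor of TIE2, stood at 3.38 and 5.82 TPM in the 40- and 39-somite knockouts against 2.53 and 5.79 TPM in the matching controls. In both genes the 40-somite libraries were the lower ones. With the block by stage the 95% interval between genotypes for Tek was -0.31 to 0.41 (limma adjusted p = 0.863). Angpt2, a ligand of TIE2 that tip cells release and that can oppose Angpt1, was at 0.558 and 0.282 TPM in the 40- and 39-somite knockouts against 0.840 and 0.464 TPM in the matching controls.

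The VEGF receptors overlapped between the genotypes with both stages pooled. Kdr, which encodes the main signalling receptor VEGFR2, stood at 7.50 and 11.2 TPM in the 40- and 39-somite knockouts against 4.57 and 10.5 TPM in the matching controls (log2 fold change 0.34 ± 0.36, SE; limma adjusted p = 0.761). Flt1, the VEGF decoy receptor VEGFR1, stood at 1.41 and 2.37 TPM in the 40- and 39-somite knockouts against 1.02 and 3.63 TPM in the matching controls. Flt4, which encodes the VEGF-C receptor VEGFR3, stood at 0.787 and 1.42 TPM in the 40- and 39-somite knockouts against 0.575 and 1.60 TPM in the matching controls. Within each genotype all 3 receptors were lower at 40 than at 39 somites.

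Because endothelial receptors lay together below their 39-somite level, the stretches just upstream of 4 of them are shown, those of Kdr, Flt1 and Tie1 and of the BMP9 co-receptor gene Eng described further on, with matches to the ETS core letters in capitals (AGGAAG or CGGAAG, on either strand). They are the 250 bases before the annotated start from RefSeq on GRCm38.p6, the assembly behind mm10, 5′ to 3′ on the strand of the gene, and were chosen after the values had been seen. They lie at chr5:75978456-75978705 (minus strand, Kdr), chr5:147726012-147726261 (minus strand, Flt1), chr4:118489850-118490099 (minus strand, Tie1) and chr2:32646345-32646594 (plus strand, Eng).
Kdr: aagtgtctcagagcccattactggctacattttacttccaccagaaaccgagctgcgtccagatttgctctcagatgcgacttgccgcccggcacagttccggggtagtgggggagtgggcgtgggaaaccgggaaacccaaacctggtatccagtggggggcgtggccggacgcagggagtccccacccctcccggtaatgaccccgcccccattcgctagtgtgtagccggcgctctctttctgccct
Flt1: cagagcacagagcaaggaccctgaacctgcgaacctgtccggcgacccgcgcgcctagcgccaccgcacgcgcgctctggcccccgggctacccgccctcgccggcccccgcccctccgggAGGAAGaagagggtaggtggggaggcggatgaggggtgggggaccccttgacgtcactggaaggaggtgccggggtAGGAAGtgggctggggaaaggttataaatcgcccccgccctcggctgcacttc
Tie1: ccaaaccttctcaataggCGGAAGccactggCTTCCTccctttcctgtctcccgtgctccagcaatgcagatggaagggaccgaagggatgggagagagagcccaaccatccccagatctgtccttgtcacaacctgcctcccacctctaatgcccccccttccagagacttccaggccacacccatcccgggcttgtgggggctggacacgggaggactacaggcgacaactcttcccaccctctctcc
Eng: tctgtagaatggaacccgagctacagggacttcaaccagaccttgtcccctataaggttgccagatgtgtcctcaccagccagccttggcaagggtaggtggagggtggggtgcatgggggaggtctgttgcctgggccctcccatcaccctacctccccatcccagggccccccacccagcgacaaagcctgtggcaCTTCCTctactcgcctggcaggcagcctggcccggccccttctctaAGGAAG
Flt1, Tie1 and Eng each hold 2 such matches, and Kdr holds none in this window. The RefSeq table used here lists 21 promoters for 16 of the endothelial genes. Of these promoters 10 hold at least 1 match (47.6%), while 39.2% of the 32851 promoters of all genes do. For the SOX core letters ACAATG or ACAAAG it was 4 of 21 promoters (19.0%), against 25.2% of all promoters. The matches describe letters only.

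Among the transcription factors Sox18 came nearest to a difference. Sox18, a SOXF factor of endothelium that is needed for lymphatic specification, stood at 6.77 and 9.27 TPM in the 40- and 39-somite knockouts against 3.01 and 6.71 TPM in the matching controls. The knockouts lay above the controls by a narrow margin, 6.77 against 6.71 TPM at the nearest. The log2 fold change was 0.68 ± 0.32 (SE, n = 2 each) with a 95% interval from -0.10 to 1.47, and it did not pass (limma adjusted p = 0.435). With the block by stage the interval was 0.26 to 1.11 and the limma adjusted p 0.0940, which also missed the threshold. It passed without knockout replicate 1 (0.89, limma adjusted p = 0.0160), a fit that sets a 39-somite knockout against controls of both stages. Sox18 lies on the minus strand of chromosome 2 from 181669836 to 181671640 in mm10. The other SOXF genes overlapped between genotypes with both stages pooled. Sox17, known from arterial endothelium, stood at 1.89 and 2.23 TPM in the 40- and 39-somite knockouts against 1.17 and 3.19 TPM in the matching controls. Sox7 stood at 1.19 and 2.12 TPM in the 40- and 39-somite knockouts against 0.929 and 1.78 TPM in the matching controls. The ETS factor gene Erg, a keeper of endothelial identity, stood at 4.56 and 5.17 TPM in the 40- and 39-somite knockouts against 2.75 and 5.33 TPM in the matching controls, with the 40-somite control below the other 3 libraries. Fli1 stood at 23.8 and 35.2 TPM in the 40- and 39-somite knockouts against 22.2 and 27.9 TPM in the matching controls. Tal1 and Lyl1, basic helix-loop-helix factors shared by endothelium and blood, had log2 fold changes of -0.05 ± 0.28 and 0.26 ± 0.30 (SE).

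Of the surface proteins, Pecam1 (CD31, an adhesion molecule of endothelial junctions) stood at 14.1 and 18.3 TPM in the 40- and 39-somite knockouts against 8.23 and 16.4 TPM in the matching controls. Esam, another junctional adhesion molecule, stood at 8.49 and 10.5 TPM in the 40- and 39-somite knockouts against 4.47 and 10.1 TPM in the matching controls. In both genes 3 libraries lay close together and the 40-somite control lay well below them. Their log2 fold changes were 0.43 ± 0.30 and 0.42 ± 0.33 (SE) and did not pass (limma adjusted p = 0.623 and 0.661). With the block by stage the 95% intervals were 0.02 to 0.83 and -0.09 to 0.93, and neither passed (limma adjusted p = 0.191 and 0.271). Clec14a, a C-type lectin of endothelium, stood at 3.05 and 3.24 TPM in the 40- and 39-somite knockouts against 2.30 and 2.68 TPM in the matching controls, with groups that did not overlap and a log2 fold change of 0.25 ± 0.16 (SE; limma adjusted p = 0.571). Gpihbp1, the capillary anchor of lipoprotein lipase, stood at 1.05 and 1.22 TPM in the 40- and 39-somite knockouts against 0.625 and 0.787 TPM in the matching controls, at 0.32 ± 0.17 (SE; limma adjusted p = 0.501). Emcn, a sialomucin of capillary and venous endothelium, was the steadiest between genotypes, at 15.5 and 21.5 TPM in the 40- and 39-somite knockouts against 15.7 and 21.2 TPM in the matching controls, with a 95% interval of the log2 fold change from -0.51 to 0.50, and from -0.21 to 0.21 with the block.

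Stage gave the clearer pattern. At 40 somites most endothelial genes stood below their level at 39 somites in both genotypes. Of the 34 measured genes 31 were lower at 40 somites within the knockout and within the control, the exceptions being Angpt1, Angpt2 and Etv2, and among all tested genes 53.6% were lower in both. In 28 genes both 40-somite libraries lay below both 39-somite libraries, against 34.2% of all tested genes. Both lay above in 2, Angpt2 and Etv2, against 7.88%. The median log2 difference of the 32 tested genes, 40 minus 39 somites, was -0.56, against -0.10 for all tested genes. In a limma model with genotype as a term, 0 of 32 passed, against 0.164% of all tested genes, and 24 had an unadjusted p under 0.05, all of them lower, against 17.7% of all tested genes that were lower at that p. The model leaves 1 residual degree of freedom, and of the 21 genes of any kind that passed, 4 are on chromosome Y. The smallest limma adjusted p of the set was 0.0712, for Plvap, with a range of 0.0676 to 0.369 over the other settings. Leaving out a library leaves no spread in this model but gives the difference within 1 genotype, with a median of -0.39 in the knockouts and -0.72 in the controls. In 28 of the 34 genes the control had the lower of the 2 differences, against 58.6% of all tested genes.

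Plvap, which forms the diaphragms of endothelial fenestrae and caveolae, differed most by stage. It stood at 4.44 and 4.03 TPM in the 40-somite knockout and control against 10.8 and 11.1 TPM in the 39-somite pair. The stages were far apart and the genotypes close within each. Its log2 difference was -1.19 ± 0.11 (SE, n = 2 each; 95% interval -1.48 to -0.91). The gene lies on the minus strand of chromosome 8 from 71497765 to 71511752 in mm10, and Cdh5 on the plus strand of the same chromosome from 104101625 to 104144511. Cdh5, VE-cadherin, the adhesion molecule of endothelial adherens junctions, stood at 6.34 and 5.51 TPM in the 40-somite knockout and control against 12.3 and 13.7 TPM in the 39-somite pair, a difference of -1.02 ± 0.12 (SE; limma adjusted p = 0.125). Cldn5, a tight junction claudin, stood at 4.16 and 3.28 TPM in the 40-somite knockout and control against 6.47 and 6.97 TPM in the 39-somite pair. All of these stood higher at 39 somites in both genotypes. Cd93, a lectin-like receptor of sprouting endothelium, stood at 4.35 and 3.08 TPM in the 40-somite knockout and control against 7.03 and 5.74 TPM in the 39-somite pair. Cd34 stood at 27.0 and 19.1 TPM in the 40-somite knockout and control against 35.4 and 34.2 TPM in the 39-somite pair. In both, the knockout and the control differed in the same direction. Icam2, a leukocyte adhesion ligand, stood at 8.74 and 6.04 TPM in the 40-somite knockout and control against 9.02 and 9.16 TPM in the 39-somite pair, close together in the knockouts and apart in the controls. Ecscr, a regulator of endothelial motility, did likewise, at 11.97 and 10.6 TPM in the 40-somite knockout and control against 12.1 and 14.4 TPM in the 39-somite pair.

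**Figure D3:**
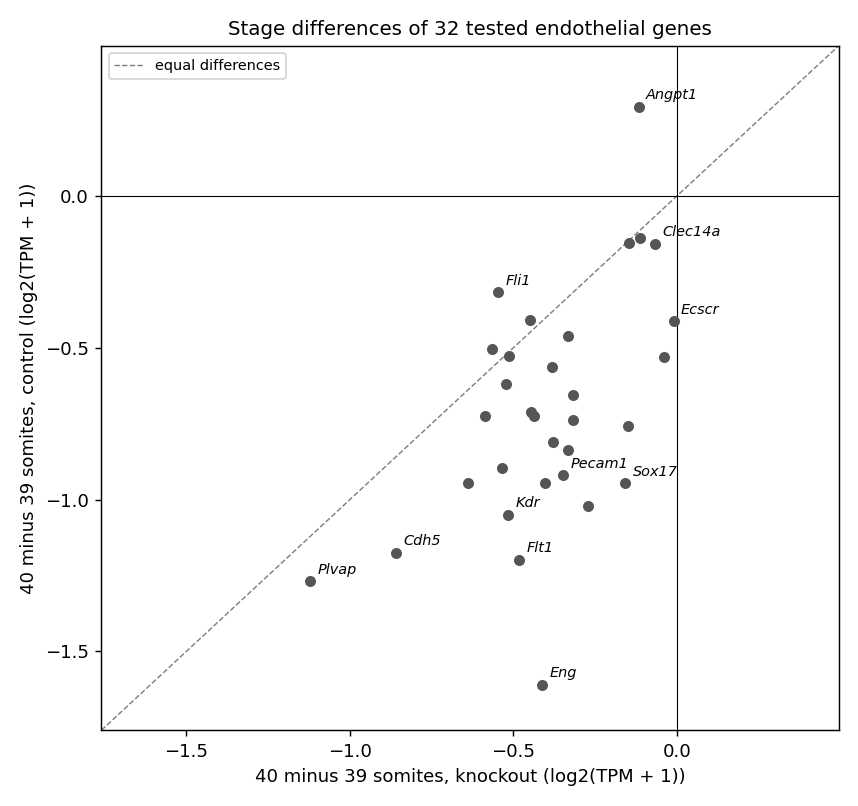
Difference between 40 and 39 somites in the knockout (horizontal axis) and in the control (vertical axis), in log2(TPM + 1), for the 32 tested endothelial genes; each point is a gene. Points lie below 0 on both axes except for Angpt1, and most lie below the dashed line of equal differences, the control difference being the larger in size for Eng (-1.61 against -0.41 in the knockout).

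The receptors, with the upstream stretches shown for Kdr, Flt1, Tie1 and Eng, also stood lower at 40 somites. Log2 differences, 40 minus 39 somites, were -0.84 ± 0.21 for Flt1, -0.79 ± 0.14 for Tie1, -0.78 ± 0.16 for Kdr, -0.58 ± 0.17 for Flt4 and -0.49 ± 0.14 for Tek (SE, n = 2 each; limma adjusted p between 0.160 and 0.181). Eng, endoglin, the co-receptor for BMP9 and BMP10, stood at 2.21 and 1.47 TPM in the 40-somite knockout and control against 3.26 and 6.54 TPM in the 39-somite pair. The 39-somite control stood well above the other 3 libraries. Acvrl1, which encodes ALK1, the kinase receptor that endoglin assists, stood at 1.41 and 1.68 TPM in the 40-somite knockout and control against 2.56 and 2.80 TPM in the 39-somite pair, with both genotypes alike. S1pr1, a receptor for sphingosine 1-phosphate that stabilises vessels, stood at 2.71 and 2.89 TPM in the 40-somite knockout and control against 3.67 and 4.35 TPM in the 39-somite pair. Ramp2, which pairs with the receptor encoded by Calcrl to bind adrenomedullin, stood at 14.8 and 10.7 TPM in the 40-somite knockout and control against 20.5 and 18.2 TPM in the 39-somite pair. Exons of Ramp2 overlap those of Vps25 on the same strand, a gene at a mean of 104.5 TPM, so the division of reads between them is uncertain. Exons of Eng overlap those of Fpgs on the opposite strand (mean 18.9 TPM), and those of Egfl7 overlap Agpat2 in the same way (mean 7.19 TPM). Exons of Lyl1 likewise overlap those of Nfix on the opposite strand (mean 1.76 TPM). Whether the quantification used strand is not given in the labels.

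Transcription factors stood lower at 40 somites as well. Lyl1 stood at 1.37 and 0.664 TPM in the 40-somite knockout and control against 1.98 and 1.97 TPM in the 39-somite pair. Tal1 stood at 1.15 and 0.931 TPM in the 40-somite knockout and control against 1.68 and 2.22 TPM in the 39-somite pair. In both, the 39-somite libraries lay above both 40-somite libraries. The 7 tested factors had log2 differences below 0, from -0.67 ± 0.16 for Sox18 to -0.43 ± 0.09 for Fli1 (SE), where 72.1% of all tested genes lay below 0. Of the 7, 5 had an unadjusted limma p under 0.05, against 17.7% of all tested genes that were lower at that p. Etv2 went the other way at very low levels, 0.434 and 0.695 TPM in the 40-somite knockout and control against 0.244 and 0.244 TPM in the 39-somite pair.

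The secreted factors Egfl7 and Esm1 stood lower at 40 somites too. Egfl7 stood at 33.9 and 32.6 TPM in the 40-somite knockout and control against 44.5 and 48.7 TPM in the 39-somite pair (log2 difference -0.47 ± 0.08, SE; limma adjusted p = 0.160). Esm1, a proteoglycan of tip cells, stood at 2.38 and 1.86 TPM in the 40-somite knockout and control against 3.85 and 3.40 TPM in the 39-somite pair. Vwf, the platelet-binding glycoprotein of more mature endothelium, stood at 0.872 and 0.809 TPM in the 40-somite knockout and control against 1.07 and 1.01 TPM in the 39-somite pair, a difference of -0.15 ± 0.16 (SE; limma adjusted p = 0.590). Clec14a (-0.11 ± 0.13) and Gpihbp1 (-0.13 ± 0.16) also differed by less than their SE between stages. Angpt1 stood at 1.39 and 4.14 TPM in the 40-somite knockout and control against 1.59 and 3.19 TPM in the 39-somite pair. Its libraries separated by genotype and not by stage. Of all tested genes 21.2% had both knockouts below both controls.

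Other endothelial genes outside the named set also lay lower at 40 somites. Of 29 tested, 0 passed by limma and 28 lay below 0, against 72.1% of all tested genes. An unadjusted limma p under 0.05 was reached by 15 of them, all lower, against 17.7% of all tested genes that were lower at that p. The median was -0.35. Nos3, Klf2 and Exoc3l2 reached 1 TPM only at 39 somites, so their inclusion depended on the group in which they were higher. They are among the 15. Plxnd1, a semaphorin receptor, stood at 6.92 and 6.59 TPM in the 40-somite knockout and control against 13.0 and 12.8 TPM in the 39-somite pair. Aplnr, the apelin receptor of venous and sprouting endothelium, stood at 6.02 and 4.17 TPM in the 40-somite knockout and control against 11.51 and 12.2 TPM in the 39-somite pair. The arterial connexin gene Gja4 stood at 3.43 and 2.15 TPM in the 40-somite knockout and control against 5.89 and 6.26 TPM in the 39-somite pair. All 3 separated the stages and overlapped between the genotypes. Gja4 and Aplnr come from the arterial and the venous list and are not among the 29. The arterial and Notch list was mixed by stage, with 7 of 12 tested genes below 0 and 5 above, a median of -0.09, and 0 that passed by limma. At an unadjusted limma p under 0.05 it had 2 lower and 2 higher, where 2767 of all 12809 tested genes reached that p in either direction. Its higher ones were Notch1, a receptor gene with a log2 difference of 0.38 ± 0.11, and Jag2, a ligand gene with 0.34 ± 0.07 (SE), both also used outside vessels. The 3 venous genes all lay below 0. Of 5 lymphatic list genes 4 were under the filter, among them the defining markers Prox1, at no more than 0.349 TPM, and Lyve1, at no more than 0.0781 TPM. The fifth, Pdpn (podoplanin), which other limb bud cells also express, stood at 17.5 and 23.8 TPM in the 40-somite knockout and control against 13.9 and 19.0 TPM in the 39-somite pair. Its log2 difference of 0.31 ± 0.08 (SE) did not pass (limma adjusted p = 0.170).

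Marker lists of other cells also differed by stage, none with a gene that passed by limma, and their part in the endothelial result was not tested. Of all tested genes 72.1% lay below 0. At an unadjusted limma p under 0.05 there were 4 erythroid, 4 mesenchyme and 4 mural genes that were lower. At the same p 11 ectoderm and 2 mural genes were higher. Of all tested genes 17.7% were lower at that p, and 2767 of 12809 reached it in either direction. Erythroid genes lay below 0 at 40 somites in 11 of 13, with a median log2 difference of -0.28 and summed levels of 12614 and 9941 TPM in the 40-somite knockout and control against 12007 and 11334 TPM in the 39-somite pair. Mesenchyme genes lay below 0 in 8 of 8, with a median of -0.24 and summed levels of 695.6 and 697.8 TPM in the 40-somite knockout and control against 790.2 and 847.2 TPM in the 39-somite pair. Surface ectoderm genes lay above 0 in 12 of 12, against 27.9% of all tested genes, with a median of 0.60 and summed levels of 523.7 and 671.9 TPM in the 40-somite knockout and control against 334.6 and 449.2 TPM in the 39-somite pair. Genes of the mural list, drawn up for pericytes and smooth muscle, lay below 0 in 6 of 8 tested, a share near that of all genes. The median was -0.41, and summed levels were 63.5 and 69.3 TPM in the 40-somite knockout and control against 69.5 and 77.3 TPM in the 39-somite pair. The exceptions were the contractile genes Acta2, with a log2 difference of 1.31 ± 0.24, and Tagln, with 0.43 ± 0.16 (SE). The list also holds Pdgfb, a ligand gene expressed by endothelium (-0.77 ± 0.14), and Mcam, which endothelium shares (-0.41 ± 0.09, SE). Both are among the 4 counted as lower, so the list does not stand for mural cells alone. Kcnj8 and Myh11, markers of pericytes and of mature smooth muscle, stayed under 0.1 TPM in all libraries. Mitochondrial genes made up 10.1% and 9.91% in the 40-somite knockout and control, against 7.58% and 8.05% in the 39-somite pair. The RNA amounts in the labels were 310 and 340 ng at 40 somites against 330 and 580 ng at 39 somites. With TPM recomputed without mitochondrial, globin and sex-linked genes the endothelial median was -0.55.

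**Figure D4:**
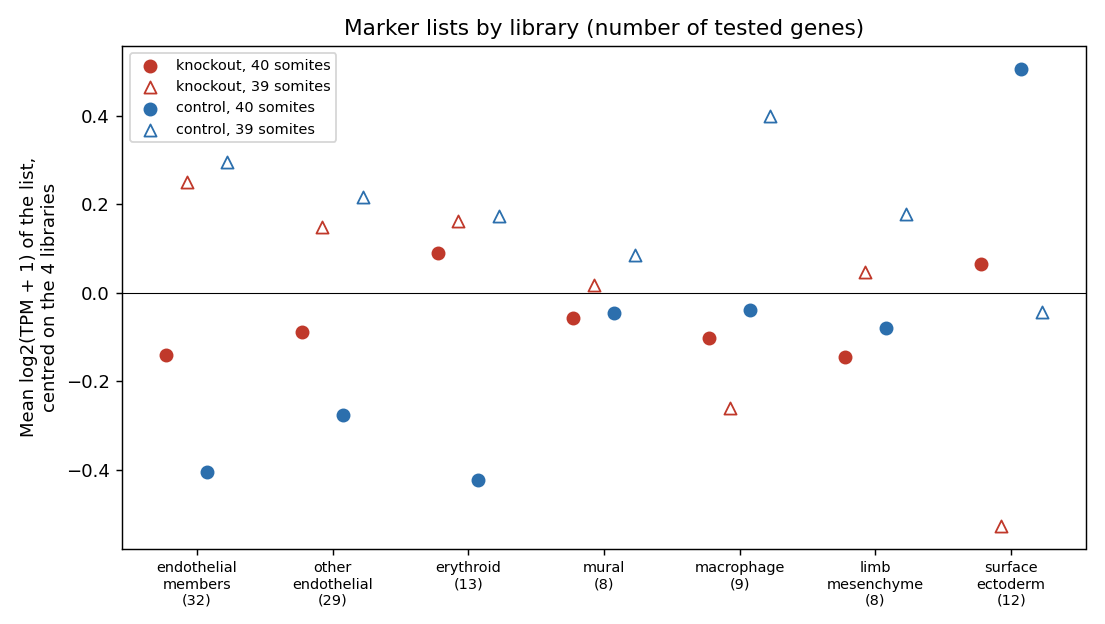
Mean log2(TPM + 1) of each marker list in each library, after the mean of each gene over the 4 libraries was subtracted; the number of tested genes is in brackets, red is knockout, blue is control, filled circles are 40 somites and open triangles 39 somites. The endothelial genes stand at -0.14 and 0.25 in the 40- and 39-somite knockouts and at -0.40 and 0.30 in the matching controls, and the surface ectoderm list runs the opposite way by stage.

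Between the genotypes the lists ran in different directions. Erythroid genes lay above 0 in 11 of 13 in the knockouts, with a median log2 fold change of 0.17 and a within-stage median of 0.49 at 40 somites and 0.06 at 39 somites, beside endothelial medians of 0.25 and -0.01. By limma 0 erythroid genes passed. At an unadjusted p under 0.05, reached by 13.7% of all tested genes, 2 were higher, Hba-a1 (0.95 ± 0.20) and Hba-x (0.79 ± 0.31, SE). The adult globin gene Hbb-bs (-0.35 ± 0.11, SE) was the 1 that was lower. Hba-a1 and Hbb-bs share sequence with near-identical copies, so the division of reads between copies is uncertain. Hba-a2, the copy of Hba-a1, stood at 435 and 318 TPM in the 40- and 39-somite knockouts against 198 and 911 TPM in the matching controls. The 9 tested macrophage genes lay above 0 in 1 and below in 8, with a median of -0.37 and summed levels of 28.4 and 24.2 TPM in the 40- and 39-somite knockouts against 29.9 and 41.9 TPM in the matching controls. Of these, Adgre1 and Cx3cr1 reached 1 TPM only in the controls, so their inclusion depended on the group in which they were higher. The mural list had 4 genes above and 4 below 0, and Rgs5, among those above, reached 1 TPM only in the knockouts. All 12 surface ectoderm genes lay below 0 (median -0.49), against 48.2% of all tested genes. All 6 tested myoblast genes lay above 0 (median 0.35), against 51.8%. The 5 tested nerve-associated genes lay below 0. Of 8 limb mesenchyme genes 3 lay above 0 and 5 below. Among them Pdgfra (1.03 ± 0.11, SE, limma adjusted p = 0.0165) and Msx1 (-1.75 ± 0.16, SE, limma adjusted p = 0.0117) passed. The part of these lists in the endothelial values was not tested.

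Outside the endothelial set, some genes that serve the same pathways did pass between genotypes. Nrp2, a co-receptor for VEGF-C and semaphorins that limb mesenchyme also expresses, rose to 157.8 and 208.0 TPM in the 40- and 39-somite knockouts, against 67.8 and 87.3 TPM in the matching controls (log2 fold change 1.23 ± 0.18, SE, n = 2 each; limma adjusted p = 0.0416). Calcrl, the partner of Ramp2 in the adrenomedullin receptor, rose to 12.2 and 14.3 TPM in the 40- and 39-somite knockouts against 5.32 and 5.44 TPM in the matching controls (1.16 ± 0.14, SE; limma adjusted p = 0.0260). Ece1, the enzyme that activates endothelins and is widely expressed, fell to 29.5 and 32.1 TPM in the 40- and 39-somite knockouts against 63.0 and 59.9 TPM in the matching controls (-0.98 ± 0.11, SE; limma adjusted p = 0.0211). In each of these the knockouts did not overlap the controls. Nfatc1, a transcription factor gene of endocardium that other cells also use, stood at 2.17 and 1.91 TPM in the 40- and 39-somite knockouts against 4.95 and 6.91 TPM in the matching controls (-1.17 ± 0.19, SE; limma adjusted p = 0.0521). It missed the threshold narrowly, and passed with the block by stage (0.0393), with no variance trend (0.0444) and without either knockout library.

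The calls for Nrp2, Calcrl and Ece1 were lost when either control was left out, and held with the block by stage. Under the block the limma adjusted p was 0.00973 for Nrp2, 0.0177 for Calcrl and 0.0148 for Ece1. With a library left out the log2 fold change ran from 1.03 to 1.42 for Nrp2, 1.05 to 1.26 for Calcrl and -1.03 to -0.92 for Ece1. Calcrl and Ece1 were the calls among 29 further endothelial genes, leaving 27 that did not pass. Nrp2 was the 1 call among 7 VEGF ligands and co-receptors. Both shares lie above the 1.30% of all tested genes called in either direction. The lists were chosen with earlier results of these data known, and their shares were not tested. Without control replicate 1 or 2 the limma adjusted p was 0.108 and 0.0639 for Nrp2, 0.0793 and 0.0786 for Calcrl and 0.0753 and 0.0648 for Ece1. For Nrp2 it was 0.0513 with quantile normalization and 0.0567 with no variance trend. With no filter on low values 0 of 20946 genes passed by limma (2338 at an unadjusted p under 0.05), with limma adjusted p values of 0.206 for Nrp2, 0.154 for Calcrl and 0.111 for Ece1 and Smarcc1. Among the ligands of the VEGF receptors none passed. Vegfa, the ligand of VEGFR2, stood at 40.4 and 36.4 TPM in the 40- and 39-somite knockouts against 40.0 and 43.0 TPM in the matching controls, a log2 fold change of -0.11 ± 0.12 (SE; limma adjusted p = 0.761). Nrp1, the VEGF-A co-receptor, stood at 12.4 and 13.9 TPM in the 40- and 39-somite knockouts against 15.4 and 22.4 TPM in the matching controls, a log2 fold change of -0.47 ± 0.19 (SE; limma adjusted p = 0.365). Of the 11 tested hypoxia response genes, 0 passed by limma, with a median of 0.01. At an unadjusted limma p under 0.05 there was 1 that was lower, against 6.89% of all tested genes.

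**Figure D5:**
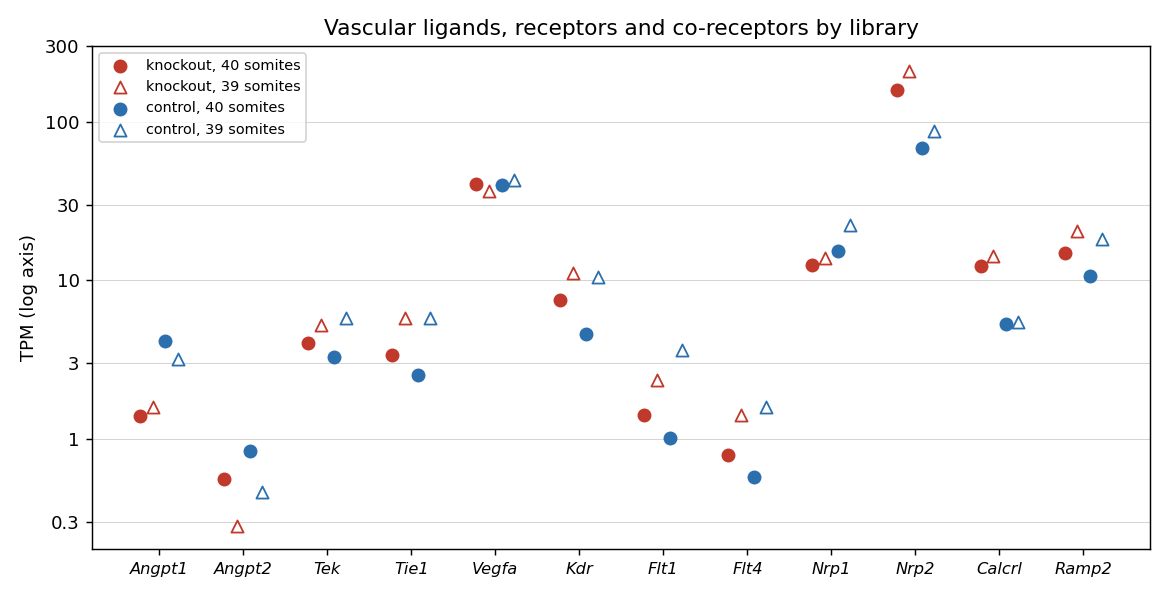
TPM on a log axis of vascular ligands, receptors and co-receptors in each library; red is knockout, blue is control, filled circles are 40 somites and open triangles 39 somites. Nrp2 and Calcrl are higher and Angpt1 lower in both knockouts, while Tek, Tie1, Kdr, Flt1 and Flt4 are lower at 40 somites in both genotypes.

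A few genes stood furthest from the others of the set. Relative to the mean log2 level of 6 defining markers in the same library (Pecam1, Cdh5, Kdr, Tie1, Emcn and Cldn5), a description made after the values were seen and without a test, Angpt1 stood at -1.07 and Sox18 at 0.51, knockout minus control on the log2 scale. The other 30 tested genes, the 6 markers among them, lay between -0.39 (Eng) and 0.26 (Pecam1). Taking off the marker mean shifts the fold change of every gene by the same amount. The order of the genes is therefore that of the fold changes given above, and it adds no separate evidence. Angpt1 is not made by endothelium, so the markers are no reference for the cells that make it. The 6 markers summed to 51.0 and 75.5 TPM in the 40- and 39-somite knockouts against 39.9 and 74.6 TPM in the matching controls.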

How the data were processed

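RNA was measured in 4 libraries of mouse forelimb bud pairs, 2 per genotype. The authors deposited TPM values for 35727 Ensembl gene identifiers. Salmon 1.9.0 and mm10 are named in the submitters' processing notes; which transcripts and settings were used is something not given in the sources used here. Columns were matched to sample titles, 1 column name holding an extra letter. Symbols were found for 35422 identifiers, and 38 repeated symbols were summed. TPM keeps no depth, so precision rests on the spread between embryos.

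Genes with at least 1 TPM in at least 2 libraries entered limma 3.58.1 (R 4.3.3; eBayes with trend) on the log2(TPM + 1) scale, with p-values adjusted by Benjamini-Hochberg over 12809 genes at 0.05. Genotype was fitted alone, and stage with genotype as a term. A pseudocount of 1 shrinks the fold changes of low genes. The tests were checked on simulated data that held a genotype or a stage difference, never both. In the real data stage adds to the spread of the genotype fit, which the check does not cover. Alternatives were other pseudocounts, filters and scalings, no variance trend, a stage block, each library left out and a threshold of 0.1. Intervals are 95% limma intervals. The genes, the lists and the naming rule (every gene of the set, with full statistics for those of smallest p in each role; of other lists those that passed or had the smallest p) were chosen with earlier results of these data known. Genes given full statistics beyond this rule were picked after their values were seen. Of the other lists every gene that passed is named, but not all of those with the smallest p. Coordinates come from GENCODE for mm10, counted from 1.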

Additional observations from a re-analysis of the deposited data

Results flagged for a closer look

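In 3 endothelial genes the knockout stood above the control at 40 somites and below it at 39 somites by more than 0.25 on the log2(TPM + 1) scale each time. The log2 differences at 40 and 39 somites were 0.38 and -0.82 for Eng, 0.26 and -0.46 for Flt1, and 0.41 and -0.38 for Sox17. Each rests on 1 library against 1, and the difference between the stages was not tested. The 39-somite control was the highest library in all 3 genes and the 40-somite control the lowest. The smallest difference of 0.25 was chosen after the data were seen.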

How the results depend on the processing

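Between genotypes 167 genes passed with all 4 libraries and no block. By limma the count was 0 with no filter on low values (2338 at an unadjusted p under 0.05), 533 with the replicate block by somite stage and 316 at a threshold of 0.1, and ran from 50 to 646 with a library left out. Of the endothelial genes 0 passed, also under the block, 1 at a threshold of 0.1, and between 0 and 2 with a library left out (Angpt1 and Sox18 without knockout replicate 1, Angpt1 without knockout replicate 2). The pairing by stage comes from the labels and not from replicate numbers; across 12809 genes the stage differences of the 2 genotypes correlated with Pearson 0.25 and Spearman 0.36, genes being not independent replicates. The block changed no endothelial call. The median log2 fold change of the tested endothelial genes ran from -0.19 to 0.49 with a library left out and stayed between 0.05 and 0.22 under the other settings. Between stages 21 genes passed by limma, 0 with no filter (2788 at an unadjusted p under 0.05), 12 with no variance trend, 13 with no genotype term and 1 endothelial gene, Plvap, at a threshold of 0.1. The endothelial median was -0.32 at a pseudocount of 5, a setting that shrinks low genes by construction, and ran from -0.72 to -0.39 with a library left out; tests without a library were not run for stage because no residual degrees of freedom remain. The genotype difference changed sign with a library left out in 28 endothelial genes, with ranges of -0.41 to 0.16 for Acvrl1, -0.14 to 0.67 for Cd34, -0.039 to 0.68 for Cd93, -0.57 to 0.60 for Cdh5, -0.36 to 0.54 for Cldn5, -0.24 to 0.17 for Ecscr, -0.32 to 0.24 for Egfl7, -0.23 to 0.22 for Emcn, -1.03 to 0.58 for Eng, -0.11 to 0.64 for Erg, -0.090 to 0.93 for Esam, -0.12 to 0.50 for Esm1, -0.062 to 0.48 for Fli1, -0.70 to 0.50 for Flt1, -0.32 to 0.40 for Flt4, -0.040 to 0.49 for Icam2, -0.18 to 0.87 for Kdr, -0.16 to 0.67 for Lyl1, -0.032 to 0.89 for Pecam1, -0.60 to 0.67 for Plvap, -0.059 to 0.65 for Ramp2, -0.36 to 0.097 for S1pr1, -0.46 to 0.49 for Sox17, -0.087 to 0.44 for Sox7, -0.42 to 0.31 for Tal1, -0.28 to 0.38 for Tek, -0.31 to 0.63 for Tie1, -0.031 to 0.12 for Vwf. It also changed sign at a pseudocount of 5 for Cdh5 (-0.0013) and Sox17 (-0.011). For stage the sign changed for Angpt1 only, with a range of -0.12 to 0.29. None of the 28 passed between genotypes in any of these fits. With a library left out, stage and sex are no longer balanced between genotypes. The unknown depth limits what can be said of genes near 1 TPM.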
